A study of Homo sapiens with 88 samples.

Results

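The response of NCI-H446, an established human small cell lung cancer (SCLC) cell line, to the treatment called 552A was followed on 13 of the 88 expression arrays of this series, chosen by their titles. The study asked how an inhibitor of the histone demethylase LSD1 alters gene expression in SCLC lines with different growth sensitivity to it. It profiled 6 lines after 2, 4 and 7 days in culture and 3 further lines at day 4, each with the solvent DMSO or with drug. In NCI-H446, 7 arrays hold cells kept in DMSO (2 at day 2, 3 at day 4 and 2 at day 7) and 6 hold cells kept in 552A (2 on each day). All were grown in RPMI medium with 10% fetal bovine serum. The titles call the drug arm 552A, while the treatment field names GSK2879552 at 1 µM; no label equates them, and none says whether NCI-H446 was among the sensitive or the resistant lines. No label says that replicate arrays came from separate cultures, so the p-values measure the spread between arrays, which may be technical.

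LSD1, encoded by KDM1A, removes methyl groups from histones and acts inside the CoREST repressor complex. DNA-binding repressors such as GFI1, GFI1B, INSM1 and SNAI2 recruit it to their target genes through a short N-terminal motif, so blocking LSD1 can release genes these factors hold down. Most SCLC cells express neuroendocrine genes, while variant lines, of which NCI-H446 is one with high MYC, also carry mesenchymal features.

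Markers of SCLC subtypes were read first in DMSO. Levels here are log2 signals of 1 probe set per gene, and a level at or below 6.09, a limit set at the lower quartile of a typical array, is called dim. In DMSO the mean levels of neuroendocrine markers were 13.22 for INSM1, 12.38 for CHGA, 11.64 for NCAM1 and 7.87 for SYP. The median of all values was 7.41. POU2F3, the tuft cell regulator, was dim at 4.64. Averaged with equal weight over days, VIM at 10.02, ZEB1 at 11.91 and PTPN14 at 11.81 stood highest of the 9 lines, MYC stood 2nd, INSM1 and SNAI2 (dim at 5.82) stood 7th, and HEPACAM2 at 7.10, DLL3 at 7.80 and HES1, dim at 5.85, stood lowest. None of the 4 immune and 4 endothelial markers tested was called between the arms by limma. At an unadjusted limma p below 0.05 there were 0 of each, against 2434 of all 15352 genes tested. The summed level of the 11 immune markers read ran from 73.9 to 78.6 in DMSO and from 74.1 to 75.3 in 552A. Of these 11, PTPRC, the pan-leukocyte marker, was dim in both arms and the other 10 were not, among them CD79A at 8.70 in DMSO; the endothelial marker CDH5 stood at 10.9, and the 5 endothelial markers summed to 37.6 to 38.8 in DMSO and 37.1 to 38.6 in 552A. Their part in the results was not tested.

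LUM and CRYAB had the largest increases after 552A, and UNC5A and HEPACAM2 the largest decreases. LUM (lumican, a proteoglycan of the collagen matrix) rose 3.72-fold, CRYAB (a small heat shock protein) 3.56-fold, MYOF (myoferlin, a membrane repair protein) 3.12-fold and VIM (vimentin, the intermediate filament of mesenchymal cells) 2.51-fold. UNC5A, a netrin receptor of growing axons, fell by 1.40 on the log2 scale, and HEPACAM2, an adhesion protein found in tuft and some neuroendocrine cells, fell by 1.38. Over the 3 days averaged with equal weight, 661 of 15352 genes tested rose (4.31%) and 197 fell (1.28%) at adjusted p below 0.05 (limma, Benjamini-Hochberg), 858 in all (5.59%). Changes were mostly small: 29 of the genes that rose (0.189%) and 4 of those that fell (0.0261%) moved by at least 1 on the log2 scale. Bulk arrays cannot separate a change in every cell from a change in the share of cells that express a gene.

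Promoter sequences are shown for the leading genes that have one in the RefSeq table used (build GRCh38.p14), since LSD1 is brought to genes by DNA-binding repressors. The table held 6 of the 12 leading genes that rose and 12 of the 12 that fell; the 2 of each with the largest change are printed as the 250 bases before the transcript start, 5′ to 3′ on the gene's own strand. They lie at chr10:93482335-93482584 (minus strand) for MYOF, chr1:99645863-99646112 (plus) for PALMD, chr5:176810309-176810558 (plus) for UNC5A and chr7:93232199-93232448 (minus) for HEPACAM2. Capitals mark a match to AAATCAC, the core recognised by GFI1.
MYOF: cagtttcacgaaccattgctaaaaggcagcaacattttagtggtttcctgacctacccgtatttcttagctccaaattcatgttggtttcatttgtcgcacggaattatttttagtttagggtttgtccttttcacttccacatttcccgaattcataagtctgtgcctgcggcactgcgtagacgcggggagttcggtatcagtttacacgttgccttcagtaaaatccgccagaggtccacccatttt
PALMD: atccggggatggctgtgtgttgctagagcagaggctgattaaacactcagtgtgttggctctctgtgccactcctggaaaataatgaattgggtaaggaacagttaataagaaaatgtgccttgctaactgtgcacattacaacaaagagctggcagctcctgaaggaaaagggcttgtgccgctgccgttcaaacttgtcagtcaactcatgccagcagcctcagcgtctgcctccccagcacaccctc
UNC5A: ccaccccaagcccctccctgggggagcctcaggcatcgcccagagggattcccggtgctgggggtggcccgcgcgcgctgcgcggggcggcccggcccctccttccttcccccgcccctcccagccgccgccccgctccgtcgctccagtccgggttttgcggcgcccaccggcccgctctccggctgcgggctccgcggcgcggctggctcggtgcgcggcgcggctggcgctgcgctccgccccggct
HEPACAM2: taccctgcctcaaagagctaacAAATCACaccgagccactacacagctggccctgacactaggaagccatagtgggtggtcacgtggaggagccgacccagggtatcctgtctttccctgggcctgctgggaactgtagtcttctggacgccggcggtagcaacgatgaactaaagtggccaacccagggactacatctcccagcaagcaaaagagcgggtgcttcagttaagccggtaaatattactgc
On either strand of the same window, AAATCAC was present in 2.67% of the 27305 promoters in the table, and among the leading genes in BBOX1, which rose, and HEPACAM2, which fell. CAGGTG, the E-box bound by SNAI2 and ZEB1, was present in 17.5% of them, and among the leading genes in IL6R, which rose, and SYNPR, which fell. The motifs do not overlap each other, and a match is a description of the sequence and not evidence of binding. The printed UNC5A window has 81.2% G and C, against 44.4% for MYOF, 50.4% for PALMD and 55.2% for HEPACAM2.

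Among the DMSO arrays of day 4, replicates 2 and 3 stood apart from the rest, which bears on every count. DMSO day 4 replicate 2 had an interquartile range of 2.56, against 2.90 to 3.13 on the other 12 NCI-H446 arrays. Set against the mean of the day 2 and day 7 DMSO arrays, its genes differed with an SD of 0.41 and 391 genes lay more than 1 log2 unit away. Replicate 3 gave 0.24 and 42 genes, and replicate 1 gave 0.19 and 6 genes. The day 2 and day 7 arrays, each set against the mean of the others, gave 4 to 12 genes. Replicate 2 alone had high EGFR (10.89) and DLK1 (7.36), replicate 3 alone had high AKR1C3 (7.21) and CALCA (8.60), and the serum-induced genes EGR1 and CCN1 were lower in all 3 than in any other DMSO array. The 3′ minus 5′ signal of ACTB, a measure of RNA integrity, was 0.22 in replicate 2 and 0.18 in replicate 3. It was at most 0.06 on the other NCI-H446 arrays. On 5 day 7 arrays of SHP-77 and COLO668 it ran from 0.88 to 1.67. These 5 and DMSO day 4 replicate 2 are called the 6 arrays in doubt below. The part of RNA quality in the results was not tested.

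The averaged response was recomputed without replicate 2. Without that array 533 genes rose (3.47%) and 288 fell (1.88%), and 683 of the 858 genes first called were called in the same direction. Leaving out DMSO day 4 replicate 1 instead gave 2087 calls. Without DMSO day 4 replicates 2 and 3, 544 rose (3.54%) and 259 fell (1.69%). With day 4 left out of the mean, 383 genes rose (2.49%) and 84 fell (0.547%), of which 412 were among the 858. A fit to the 13 NCI-H446 arrays alone called 189 up (1.23%) and 31 down (0.202%), every one of them among the 858. After quantile normalization of all arrays, 611 rose and 369 fell, so that increases made up 62.3% of the calls. The median change over all genes was 0.02 as deposited and -0.002 without replicate 2.

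**Figure D1:**
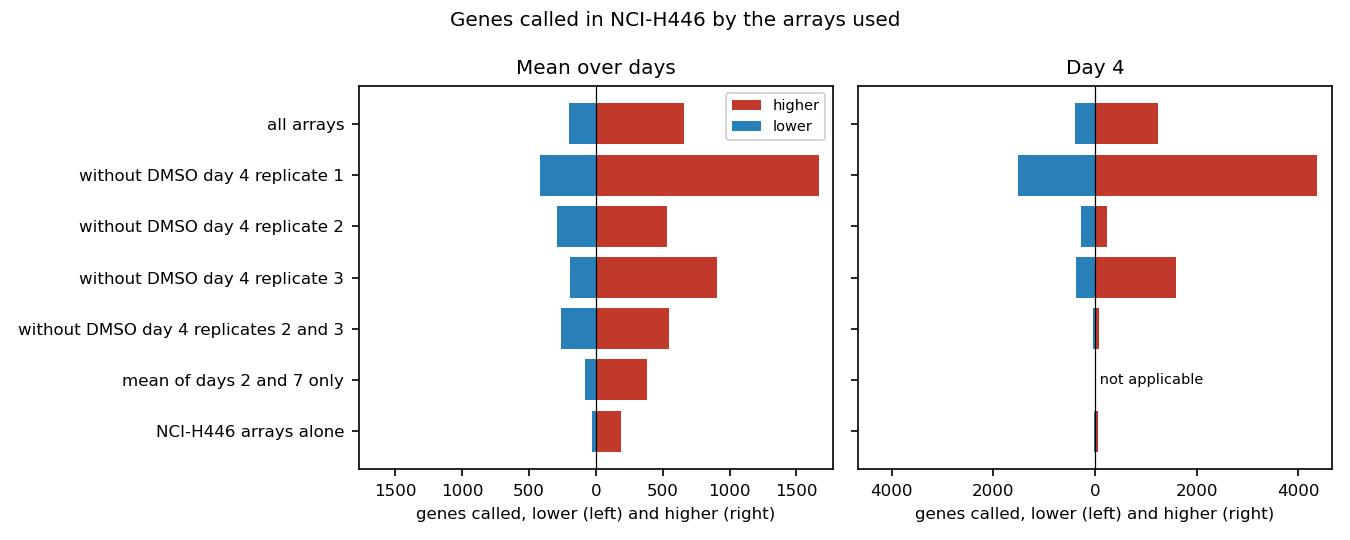
Number of genes called lower (bars to the left of 0) and higher (bars to the right) in 552A than in DMSO, for the mean over days and for day 4, with the arrays used named at the left. At day 4 the 1238 increases fall to 238 without DMSO day 4 replicate 2 and to 82 without replicates 2 and 3, while the averaged count moves less.

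Among the 12 genes that rose most, 4 encode parts of the extracellular matrix or cytoskeleton: LUM, MATN2, VIM and KRT80. LUM ran from 5.77 to 7.53 (median 7.16) in DMSO and from 7.36 to 9.61 (median 9.01) in 552A. The arms overlapped over all arrays but not within any day, since LUM also climbed with time in DMSO, from 6.02 at day 2 to 7.03 at day 4 and higher still at day 7. The averaged change was 1.90 ± 0.15 (log2, SE; limma adjusted p = 3.88e-14). Another LUM probe set, brighter on average over the series but below the filter on level in every group, gave 0.10 (limma adjusted p = 0.491) where no filter was applied.

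VIM ran from 9.79 to 10.17 in DMSO (median 10.06) and from 10.80 to 11.92 in 552A (median 11.27), with no overlap. It stayed level in DMSO, and the difference was 0.95 at day 2, 1.29 at day 4 and 1.74 at day 7, with an averaged change of 1.33 ± 0.10 (limma adjusted p = 5.14e-16). MATN2, a filament-forming matrix protein, ran from 6.92 to 8.30 in DMSO and from 8.24 to 9.67 in 552A, and its arms overlapped only across days; it rose by 1.36. KRT80, an epithelial keratin, ran from 6.98 to 7.92 in DMSO and from 8.21 to 9.38 in 552A without overlap, and rose by 1.32.

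Membrane and cytoplasmic proteins formed the next group. MYOF ran from 6.96 to 7.72 in DMSO (median 7.32) and from 8.44 to 9.63 in 552A (median 8.95). All 552A arrays lay above all DMSO arrays, and the change was 1.64 ± 0.14 (limma adjusted p = 4.54e-13), with a second probe set at 1.61. PALMD (palmdelphin, a cytosolic relative of the paralemmins) ran from 9.21 to 9.99 in DMSO and from 10.52 to 11.47 in 552A, again without overlap, and rose by 1.59 ± 0.12 (limma adjusted p = 4.75e-15). CRYAB ran from 9.74 to 11.27 in DMSO (median 10.31) and from 11.21 to 13.11 in 552A (median 12.54). Its arms met only where 552A day 2 replicate 1 (11.21) fell below DMSO day 7 replicate 1 (11.27). CRYAB rose by 1.83 ± 0.12 (limma adjusted p = 1.90e-17), most at day 4 (2.55).

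Genes of metabolism and of immune signalling completed the upper group. BBOX1, the enzyme of the last step of carnitine synthesis, was dim on all DMSO arrays (5.19 to 5.71) and ran from 6.23 to 7.87 in 552A. Its arms did not overlap and the change was 1.55 ± 0.10 (limma adjusted p = 3.46e-18); since the DMSO arm is dim, this value may understate the change. CXCL11, an interferon-inducible chemokine, ran from 4.46 to 6.11 in DMSO and from 6.33 to 7.80 in 552A, and rose by 1.49 ± 0.13. Its DMSO level averaged over days was dim at 5.43, so this value may also understate the change. IL6R, the interleukin-6 receptor chain, rose by 1.18 from a DMSO range of 5.79 to 6.42, although another of its probe sets, read where no filter was applied, gave 0.002 and was not called. In DMSO, BBOX1, CXCL11 and IL6R averaged at most 5.46, 5.43 and 6.13 in any of the 9 lines, below the filter on level at 7.41. They were thus tested only because they were brighter in a 552A group, so their calls are not independent of that filter. SLC15A3, a lysosomal peptide transporter, rose by 1.31. SHISA9, an auxiliary protein of glutamate receptors, rose by 1.39 on 1 probe set and differed by 0.19 on another, which did not pass (limma adjusted p = 0.194). For all 12 genes the 552A arrays lay above the DMSO arrays within each day, a pattern found in 406 of the genes tested (2.64%). Over all arrays pooled, 9 of the 12 were without overlap, against 152 genes tested (0.99%).

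Among the 12 genes that fell most, UNC5A ran from 10.43 to 11.34 in DMSO (median 10.77) and from 9.05 to 9.87 in 552A (median 9.33). The arms did not overlap, and UNC5A fell by 1.40 ± 0.10 (limma adjusted p = 4.80e-17), with differences of -1.31, -1.76 and -1.13 at days 2, 4 and 7; a second probe set of the gene gave 0.06 and did not pass (limma adjusted p = 0.651). HEPACAM2 ran from 6.25 to 7.51 in DMSO and from 5.35 to 6.02, all dim, in 552A. It fell by 1.38 ± 0.12 (limma adjusted p = 4.38e-13) without overlap; since the 552A arm is dim, this value may understate the change. LINC02078, a long noncoding RNA, fell by 1.06, from 7.52 to 8.55 in DMSO to 6.61 to 7.45 in 552A.

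RGS4, which shortens G protein signals, ran from 12.28 to 12.85 in DMSO and from 10.90 to 12.40 in 552A. It was 11.01 at day 4 and 12.35 at day 7 in 552A, so its arms overlapped over all arrays but not within a day, and it fell by 1.01 ± 0.16 (limma adjusted p = 7.52e-06). Ion handling genes fell without overlap: KCND3, a potassium channel, by 0.98, CACNA2D2, a calcium channel subunit, by 0.87, and ATP2B2, a calcium pump, by 0.76. The other ATP2B2 probe sets gave -0.73 and -0.06, the latter not called (limma adjusted p = 0.705). RBFOX3, the neuronal splicing factor known as NeuN, fell by 0.78, also without overlap. Its other probe sets gave -0.42 and -0.13, the latter not called (limma adjusted p = 0.408). RHOU fell by 0.76, and only DMSO day 4 replicate 2 (10.78) reached into its 552A range, which ended at 10.90.

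For 3 genes that fell over the averaged days, the arms overlapped at day 7. IGFBP5, a binding protein of insulin-like growth factors, was 8.63 at day 4 in 552A against 10.43 in DMSO, and 10.64 against 10.80 at day 7. It fell by 0.97 averaged over days, but differed by -0.56 over days 2 and 7 (limma adjusted p = 0.056); its 6 probe sets gave -0.97 to -0.12, of which 3 were called. CORO2B, an actin-binding coronin, fell by 0.75 averaged and differed by -0.37 over days 2 and 7 (limma adjusted p = 0.243). SYNPR, a synaptic vesicle protein, fell by 0.75 averaged and differed by -0.38 over days 2 and 7 (limma adjusted p = 0.308). For 7 of the 12 genes no 552A array reached the DMSO range, against 38 of all genes tested (0.248%).

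**Figure D2:**
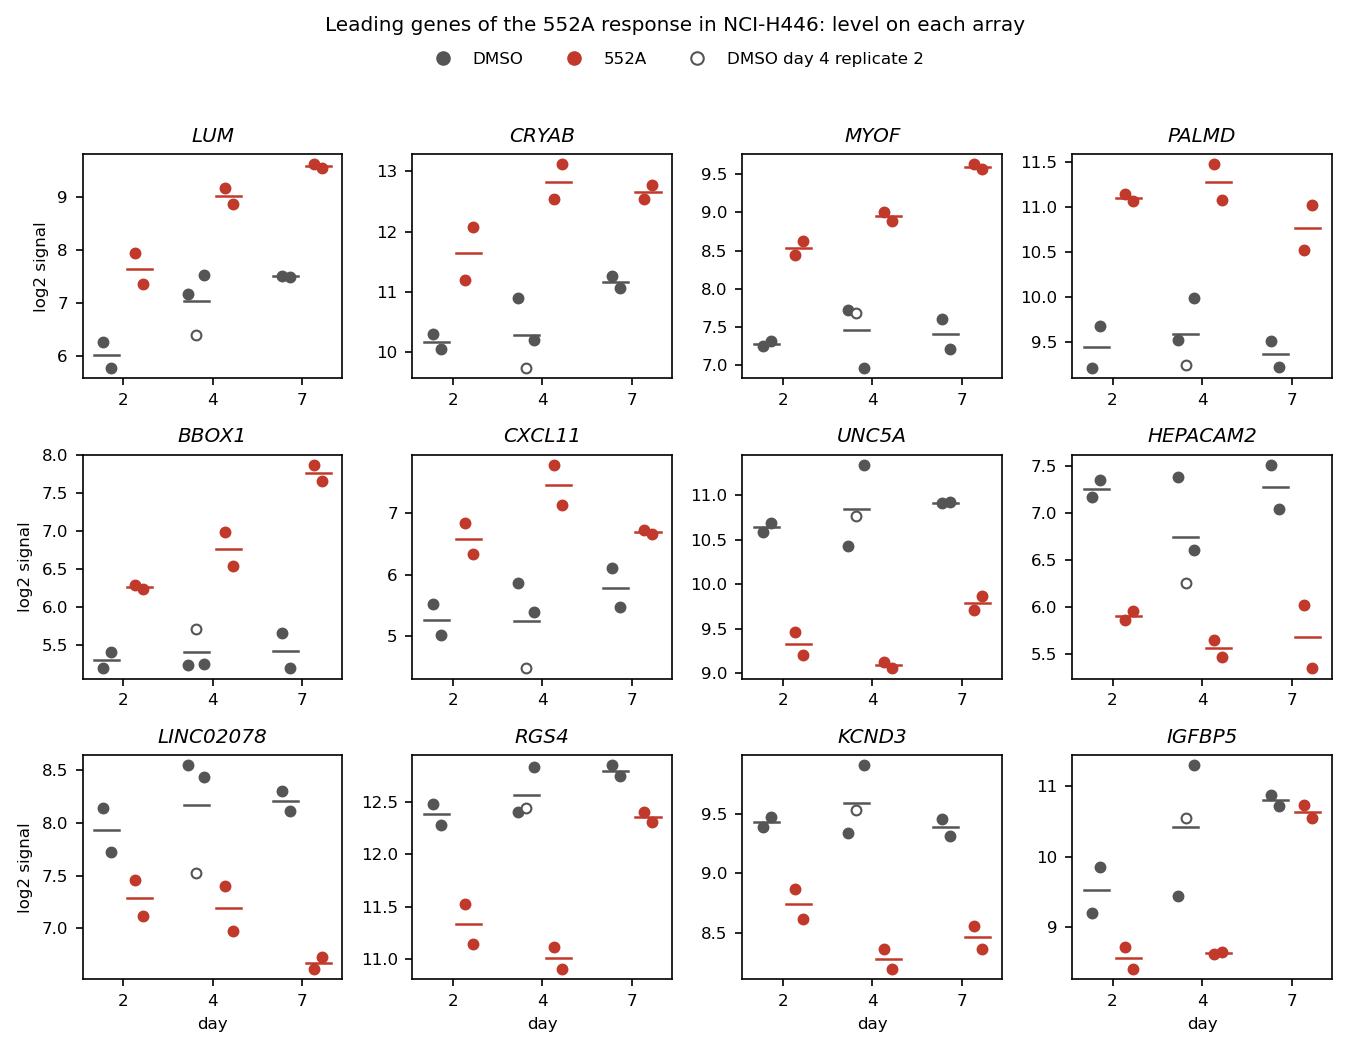
Level (log2 signal) on each of the 13 NCI-H446 arrays by day, for 6 leading genes of each direction; points are arrays, horizontal lines are the means of an arm on a day, and the open point is DMSO day 4 replicate 2. MYOF and UNC5A keep their arms apart on every day, while the IGFBP5 arms meet at day 7 (10.64 against 10.80).

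The response was also called on each day. At day 2, 55 genes rose (0.358%) and 21 fell (0.137%). At day 4, 1238 rose (8.06%) and 400 fell (2.61%), but without DMSO day 4 replicate 2 these were 238 (1.55%) and 274 (1.78%), and without replicates 2 and 3 they were 82 (0.534%) and 40 (0.261%). That last fit leaves 1 DMSO array at day 4, which is assumed to vary like the arrays of the other groups, and it called 200 genes at day 2 and 122 at day 4. The day counts rest on 1 spread per gene shared by all groups. Differences between DMSO day 4 replicates had an SD of 0.31 to 0.53, against 0.15 to 0.20 in the other NCI-H446 groups. The p-values of day 4 may thus be too small, and the fit to NCI-H446 arrays alone called 62 genes there. At day 7, 409 rose (2.66%) and 68 fell (0.443%). The median change of all genes at day 4 was 0.06 with replicate 2 and -0.01 without it, and quantile normalization turned the day 4 calls to 724 up and 1043 down. Single arrays moved these counts by over 1.5 times in many cases. The day 2 count of 76 became 25 without 552A day 2 replicate 2, 37 and 50 without DMSO day 2 replicates 2 and 1, and 130, 160 and 116 without DMSO day 4 replicates 1, 2 and 3. The day 4 count of 1638 became 397 and 475 without 552A replicates 1 and 2 and 5891 without DMSO replicate 1. The day 7 count of 477 became 235 and 204 without 552A replicates 1 and 2, and 315 and 217 without DMSO replicates 1 and 2.

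In the fit to all 88 arrays, the response itself was called as different between day 2 and day 7 for a small set of genes. The test of that difference called 32 genes with a larger value at day 7 (0.208%) and 3 with a smaller one (0.0195%). SLN (sarcolipin, a regulator of the calcium pump of muscle) was 9.46 in DMSO and 10.00 in 552A at day 2, and 10.39 against 12.50 at day 7. Its response was thus 1.58 ± 0.21 larger at day 7 (limma adjusted p = 7.05e-06). The BBOX1 response was 0.96 at day 2, 1.36 at day 4 and 2.34 at day 7, larger by 1.38 ± 0.25 at the end (limma adjusted p = 0.0042). Both genes kept their call when any 1 of the 13 arrays was left out.

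COL4A3, a chain of basement membrane collagen, was dim in both arms at day 2 (4.92 and 5.06) and stood at 5.81 in DMSO and 7.62 in 552A at day 7, a difference between days of 1.67 (limma adjusted p = 0.0174). KISS1R, the kisspeptin receptor, differed by 1.34 (limma adjusted p = 0.00552), with a response of 0.48 at day 2 and 1.82 at day 7. MYO5B, a myosin of vesicle transport, was 0.67 higher in 552A at day 2 and 0.46 lower at day 7, and differed by -1.12 (limma adjusted p = 0.00433). RND1 differed by -0.99 (limma adjusted p = 0.0341) and QPCT, which forms pyroglutamate on peptides, by -2.05 (limma adjusted p = 0.0297), with QPCT dim in both arms. The calls of these 5 genes each hung on single arrays. KISS1R lost its call without DMSO day 2 replicate 1 or 552A day 2 replicate 2, and COL4A3 without either of these, DMSO day 7 replicate 1 or 552A day 7 replicate 2. MYO5B lost it without 552A day 2 replicate 2, 552A day 7 replicate 1 or DMSO day 7 replicate 2, and QPCT and RND1 lost it without any 1 of 5 and of 6 arrays. The count of 35 became 67 and 64 without DMSO day 4 replicates 1 and 3, and 14 to 21 without 552A day 2 replicate 2, 552A day 7 replicate 1 or 2, DMSO day 2 replicate 1 or 2, or DMSO day 7 replicate 1. A fit to NCI-H446 arrays alone called none of the 35. In it, 304 of all 15352 genes tested had an unadjusted limma p below 0.05, a share below the 0.05 expected if no gene differed.

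**Figure D3:**
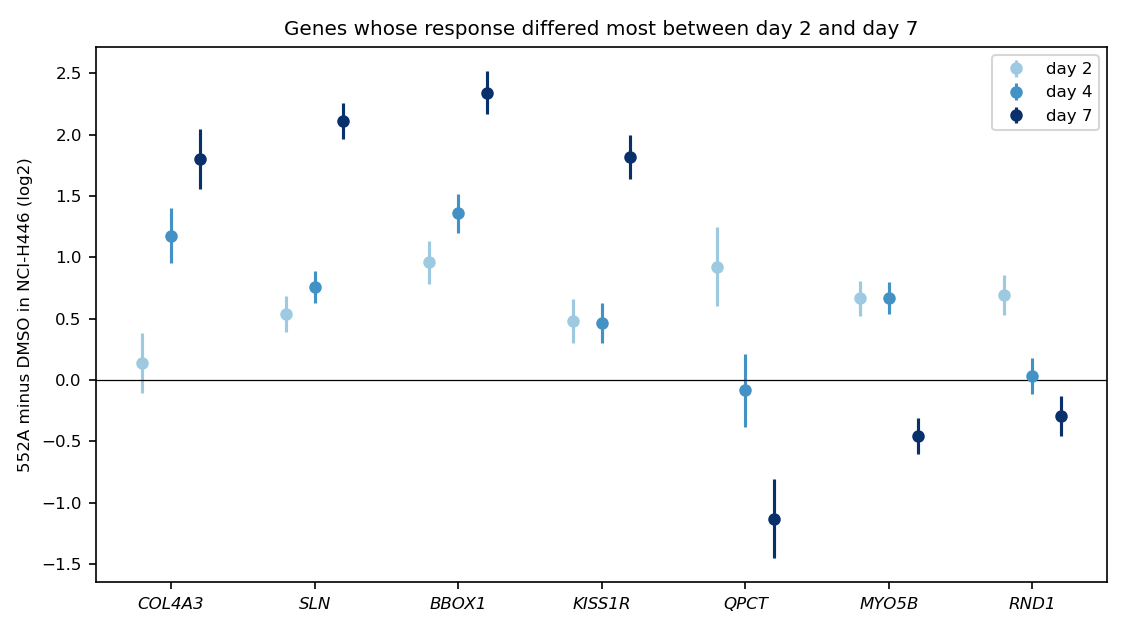
Difference between 552A and DMSO (log2, y axis) at days 2, 4 and 7 for the genes (x axis) whose response differed most between day 2 and day 7; points are fitted differences and bars are their standard errors. The BBOX1 difference stands at 0.96, 1.36 and 2.34 on the 3 days.

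Genes were also read by list. Counts of list members stand against 4.31% of all genes rising and 1.28% falling, or 2.49% and 0.547% over days 2 and 7, and a share near these says nothing about a list. Of 41 mesenchymal genes and genes of epithelial-mesenchymal transition, 12 rose and 2 fell, and the list's median change was 0.06 against 0.02 over all genes; over days 2 and 7 these were 9 and 1, with COL1A1, SPARC, ANXA2, CDH2 and S100A6 among the members not called there. SNAI2, the repressor Slug, ran from 5.44 to 6.50 in DMSO, near or below the dim limit, and from 6.32 to 7.96 in 552A; it rose by 1.08 (limma adjusted p = 6.67e-07), most at day 4 (1.87). LOX, which cross-links collagen, ran from 9.30 to 11.02 in DMSO and from 11.00 to 11.67 in 552A and rose by 0.99 (limma adjusted p = 3.29e-07). COL3A1, a fibrillar collagen, rose by 0.60, although the sign turned (-0.07, not called) where no filter let another probe set stand for it. The adhesion receptor CD44 rose by 0.45 and LGALS1 (galectin) by 0.46, while the calcium-binding proteins S100A4 and S100A6 fell by 0.48 and 0.36. ZEB1, a main repressor of epithelial genes, was 11.91 in DMSO and 11.98 in 552A and did not pass (0.07, limma adjusted p = 0.722). Without DMSO day 4 replicate 2 the list counted 11 up and 2 down.

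Fibroblast markers are partly members of the mesenchymal list. LUM, ACTA2, COL3A1 and COL1A1 rose and made up 4 of the 6 fibroblast markers tested, with ACTA2, smooth muscle actin, up by 0.67. FAP, a defining fibroblast protease, was dim in both arms, PDGFRB differed by -0.17 and DCN by 0.22, neither called. The summed level of the 7 fibroblast markers ran from 48.3 to 50.7 in DMSO and from 51.1 to 55.2 in 552A, and its part in the other results was not tested.

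Epithelial genes and TGF-beta, BMP and YAP genes moved in part. Of 26 epithelial and junction genes, CD24 (by 0.71) and EPCAM (by 0.56) rose, both surface proteins, and DSP (desmoplakin, dim in both arms) and GRHL2, an epithelial regulator, fell by 0.39 and 0.30. The GRHL2 call was lost without DMSO day 4 replicate 2 (limma adjusted p = 0.0526) and over days 2 and 7 (limma adjusted p = 0.128). CDH1 (E-cadherin) was dim in both arms at 4.71 and 4.88. Of 33 genes of TGF-beta and BMP signalling, 7 rose and 1 fell. Among ligands and their antagonists, NOG (noggin, which binds BMPs) rose by 1.06 averaged, from 2.11 at day 4, but differed by 0.53 over days 2 and 7 (limma adjusted p = 0.28), BMP4 rose by 0.34 and TGFB3 fell by 0.29. The receptor TGFBR2 rose by 0.40, LTBP1, which stores latent TGF-beta in the matrix, by 0.47, and the target ID4 by 0.50. Over days 2 and 7 the list counted 5 up and 0 down, and TGFB3 was not called there (limma adjusted p = 0.124). Of 19 YAP and TEAD pathway genes, 3 rose: WWTR1 (the coactivator TAZ, by 0.77), CCN1 (by 0.66) and AMOTL2 (by 0.37), and none was called over days 2 and 7. CCN1 was low in the DMSO day 4 arrays (9.40 to 10.43, against 11.19 to 11.42 on the other DMSO arrays), which bears on its call. PTPN14, a phosphatase that restrains YAP, was higher in every 552A array (12.04 to 12.31, against 11.32 to 11.96) but did not pass (0.36, limma adjusted p = 0.0523), and YAP1 was dim in both arms.

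Neuroendocrine genes moved in both directions. Of 30 markers, 6 rose and 2 fell, and without DMSO day 4 replicate 2 these were 5 and 7. SCG2, a secretory granule protein, ran from 11.35 to 11.94 in DMSO and from 12.11 to 12.63 in 552A, and rose by 0.57 (limma adjusted p = 3.99e-07). SYT4, a vesicle protein, ran from 11.02 to 11.60 in DMSO and from 11.70 to 12.05 in 552A, and rose by 0.50 (limma adjusted p = 2.15e-07). The arms of both genes did not overlap. CHRNA3, a nicotinic receptor subunit, fell by 0.32 and SCG5, a granin-related chaperone that was dim in both arms, by 0.29. Neither was called over days 2 and 7 (limma adjusted p = 0.522 and 0.872), where the list counted 3 up and 0 down. CHGA, the granule protein chromogranin A, differed by -0.15 and did not pass (limma adjusted p = 0.0694), though it did without that array (-0.20, limma adjusted p = 0.00116). The neuropeptide GRP was 6.45 in DMSO and 6.27 in 552A and did not pass (limma adjusted p = 0.744).

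Among 29 neural and neuroendocrine transcription factors 3 rose and 2 fell. SOX2, a stem cell factor, rose by 0.46, RUNX1T1, a corepressor, by 0.39 without overlap, and FOXA1, a pioneer factor of lung epithelium, by 0.23. NHLH1 and BHLHE22, both neural helix-loop-helix factors, fell by 0.36 and 0.34. FOXA1, NHLH1 and BHLHE22 were not called over days 2 and 7 (limma adjusted p = 0.629, 0.577 and 0.577). INSM1 (0.08), NKX2-2 (-0.02) and ST18 (0.01) did not pass, with limma adjusted p of 0.529, 0.962 and 0.952. Of the 26 regulators looked up, 2 were not analysed here.

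LSD1 and the partners listed with it were not called. KDM1A ran from 12.29 to 12.75 in DMSO and from 12.49 to 12.65 in 552A, a difference of 0.02 ± 0.05 (limma adjusted p = 0.905). None of the 23 LSD1 complex members and recruiting factors tested in this list was called by limma with all arrays. Of these, 1 fell without DMSO day 4 replicate 2. At an unadjusted limma p below 0.05 were 3 of the 23, against 2434 of all 15352 genes tested. SNAI2, which also recruits LSD1, was not in this list and rose by 1.08 (limma adjusted p = 6.67e-07). The recruiting repressors GFI1 and GFI1B differed by 0.12 and -0.16 (limma adjusted p = 0.451 and 0.118).

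In the Notch pathway, 2 of 24 genes rose. The ligand JAG1 ran from 8.29 to 9.15 in DMSO and from 9.27 to 10.00 in 552A without overlap, and rose by 0.79 (limma adjusted p = 3.20e-08); among its 5 probe sets the changes ran from 0.06 to 0.79. The target HEY1 rose by 0.33, a value that was 0.17 and not called over days 2 and 7. The receptors NOTCH1 (0.07) and NOTCH2 (0.02), the inhibitory ligand DLL3 (-0.06), the target HES1 (0.23, dim in both arms) and REST (0.00), a repressor of neuronal genes, did not pass, with limma adjusted p from 0.324 to 0.987.

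Axon guidance and synaptic adhesion genes numbered 42, of which 5 rose and 3 fell. SEMA3C, a secreted guidance cue, rose by 0.77 and PLXNA2, a semaphorin receptor, by 0.39, both without overlap. The cell adhesion molecule NRCAM rose by 0.45, NTN4 (netrin 4) by 0.42 and the netrin receptor NEO1 by 0.25. UNC5A fell as described, with L1CAM, a neural adhesion molecule, down by 0.35 and RGMB, a ligand of NEO1, by 0.22. NTN4, NEO1, L1CAM and RGMB were not called over days 2 and 7, nor NTN4 without DMSO day 4 replicate 2 (limma adjusted p = 0.0643). Of 18 genes of the tuft cell program, HEPACAM2 fell, and the coactivators POU2AF1 (by 0.57, without overlap) and POU2AF3 (by 0.43) rose, while POU2F3 stayed dim in both arms.

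Of 23 genes of class I antigen presentation and ligands of natural killer cells, 3 rose: MICB, a stress-induced ligand, by 1.05 (limma adjusted p = 3.45e-12), NCR3LG1 by 0.30 and B2M, the light chain of class I molecules, by 0.17. Of these, MICB alone was called over days 2 and 7 (NCR3LG1 had limma adjusted p = 0.0519 and B2M 0.748). MICB ran from 5.77 to 6.68 in DMSO and from 6.34 to 8.15 in 552A, overlapping across days but not within a day. Of 27 interferon response genes, OAS1 (by 0.41) and IFI44 (by 0.37) rose and none fell. IFI44 was not called without DMSO day 4 replicate 2 (limma adjusted p = 0.0751) or over days 2 and 7 (limma adjusted p = 0.367). CXCL11, described above, was in the leading group.

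Of 50 cell cycle genes, CCND1 (cyclin D, by 0.34) and E2F8 (by 0.26) rose, a share near that of all genes. E2F8 was not called without DMSO day 4 replicate 2, and neither was called over days 2 and 7 (limma adjusted p = 0.11 for CCND1 and 0.628 for E2F8). Among 28 genes of arrest, p53 targets and apoptosis, BCL2, which blocks apoptosis, ran from 6.66 to 7.23 in DMSO and from 7.29 to 7.70 in 552A without overlap and rose by 0.64 (limma adjusted p = 2.58e-11), and the death receptor FAS rose by 0.37, a value not called over days 2 and 7 (limma adjusted p = 0.056). CDKN1A, the p53 target p21, was 12.16 and 12.33 in DMSO and 552A and did not pass (limma adjusted p = 0.397). MYC, at 12.83 and 12.96, did not pass (limma adjusted p = 0.763); its relative MYCL rose by 0.43, from a change of 1.10 at day 7. None of 23 cholesterol and fatty acid genes and none of 20 DNA methylation and polycomb genes was called by limma. These counts were also 0 without DMSO day 4 replicate 2. At an unadjusted limma p below 0.05 were 1 and 3 of them, against 2434 of all 15352 genes tested. Of 28 stress genes, VLDLR, a lipoprotein receptor, rose by 0.85, and of 25 immediate early genes ZFP36L1, an RNA decay factor, rose by 0.61 and DUSP4, a phosphatase of MAP kinases, fell by 0.40. DUSP4 was not called over days 2 and 7 (limma adjusted p = 0.951). Its sign turned, uncalled (0.12), under a filter on NCI-H446 levels that let another probe set stand for it.

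**Figure D4:**
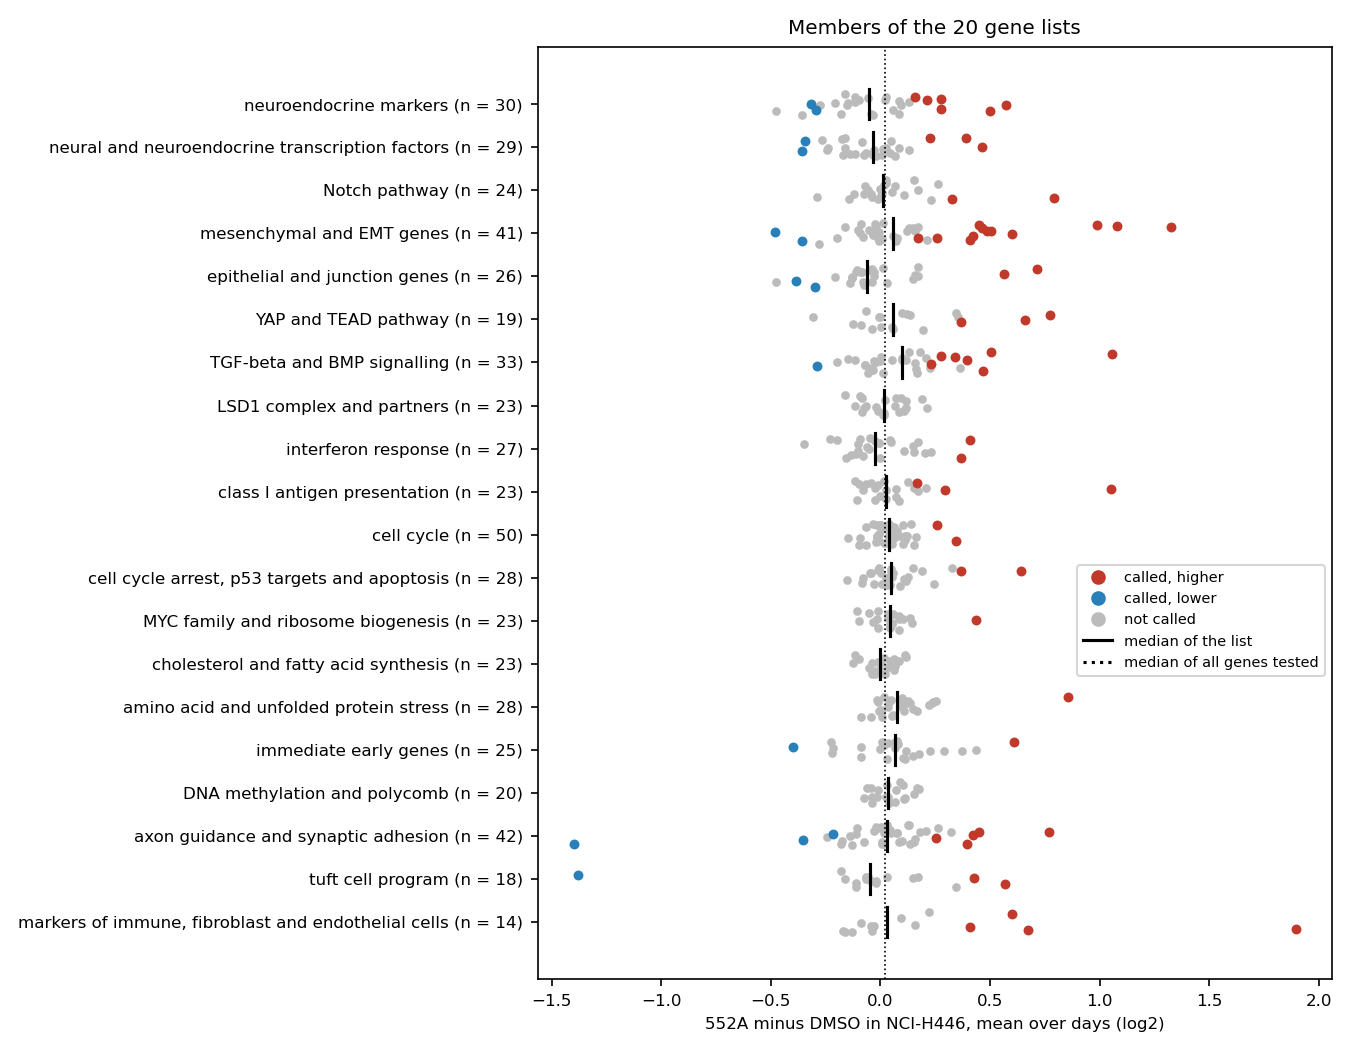
Averaged change (552A minus DMSO, log2, x axis) of each tested member of the 20 gene lists (rows, with the number tested). Points are genes coloured by call, short black lines are list medians and the dotted line is the median of all genes (0.02); the mesenchymal row holds 12 red points and the LSD1 row none.

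The NCI-H446 response was then set against the mean response of the 5 other lines followed over the same days (SHP-77, NCI-H526, NCI-H510, COLO668 and NCI-H146). That test, whose p-values measure the spread between arrays and not between lines, called 783 genes with a higher value in NCI-H446 (5.1%) and 591 with a lower one (3.85%). Without DMSO day 4 replicate 1 the 1374 calls became 2800, and without replicate 2 they were 653 higher and 801 lower. After quantile normalization they were 787 and 907. Without the 6 arrays in doubt, lower calls also outnumbered higher ones, though that fit leaves 1 array in some groups of SHP-77 and COLO668.

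Several leading genes of NCI-H446 changed less, or not, in the other lines. LUM differed by 2.12 ± 0.17 (limma adjusted p = 2.72e-14). It rose by 0.92 in SHP-77, fell by 2.01 in NCI-H526 and lay between -0.13 and 0.13 in the other 3 lines. In DMSO it was dim in all of them, at 5.59 in SHP-77, 5.98 in NCI-H526 and 3.64 to 4.12 in the other 3. CRYAB differed by 1.80 and BBOX1 by 1.48. In DMSO, CRYAB stood at 6.72 to 7.02 in the other 5 lines, below the median of all values (7.41), against 10.54 in NCI-H446. BBOX1 lay between -0.02 and 0.17 in the other 5 lines, with no call there. PALMD differed by 1.46 and MYOF by 1.45, and both rose in COLO668 as well, by 0.74 and 0.75. CCN3, a matricellular protein, differed by 1.47 and fell by 3.11 in NCI-H526; in NCI-H446 alone it rose by 0.82. In DMSO, LUM, CRYAB and PALMD stood highest of the 9 lines in NCI-H446. UNC5A differed by -1.26 (limma adjusted p = 9.16e-14), with -0.29 to 0.10 in the other lines.

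Other genes had a lower value in NCI-H446, where they were not called, and rose in several of the other lines. ZEB1 differed by -1.24 (limma adjusted p = 1.65e-15): it rose by 3.14 in NCI-H526, 2.13 in NCI-H510 and 1.25 in COLO668, where its DMSO level was 4.57 to 6.74 against 11.91 in NCI-H446. UMODL1 (-1.74), ADGRG6, an adhesion receptor (-1.22), and TNFRSF10B, a death receptor for TRAIL (-1.13), were dim in both arms of NCI-H446 and rose in 5, 3 and 4 of the other 5 lines. LRRN4 differed by -1.54, with 6.17 in DMSO and 6.02 in 552A. VIM rose in NCI-H446 but did not differ from the mean of the other lines beyond the spread (0.18, limma adjusted p = 0.317), which ran from 0.26 in SHP-77 to 2.51 in NCI-H510. PTPN14, whose DMSO level was highest in NCI-H446, differed by -0.91 (limma adjusted p = 2.80e-07) and NKX2-2 by 0.76 (limma adjusted p = 6.98e-05), though neither was called within NCI-H446.

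**Figure D5:**
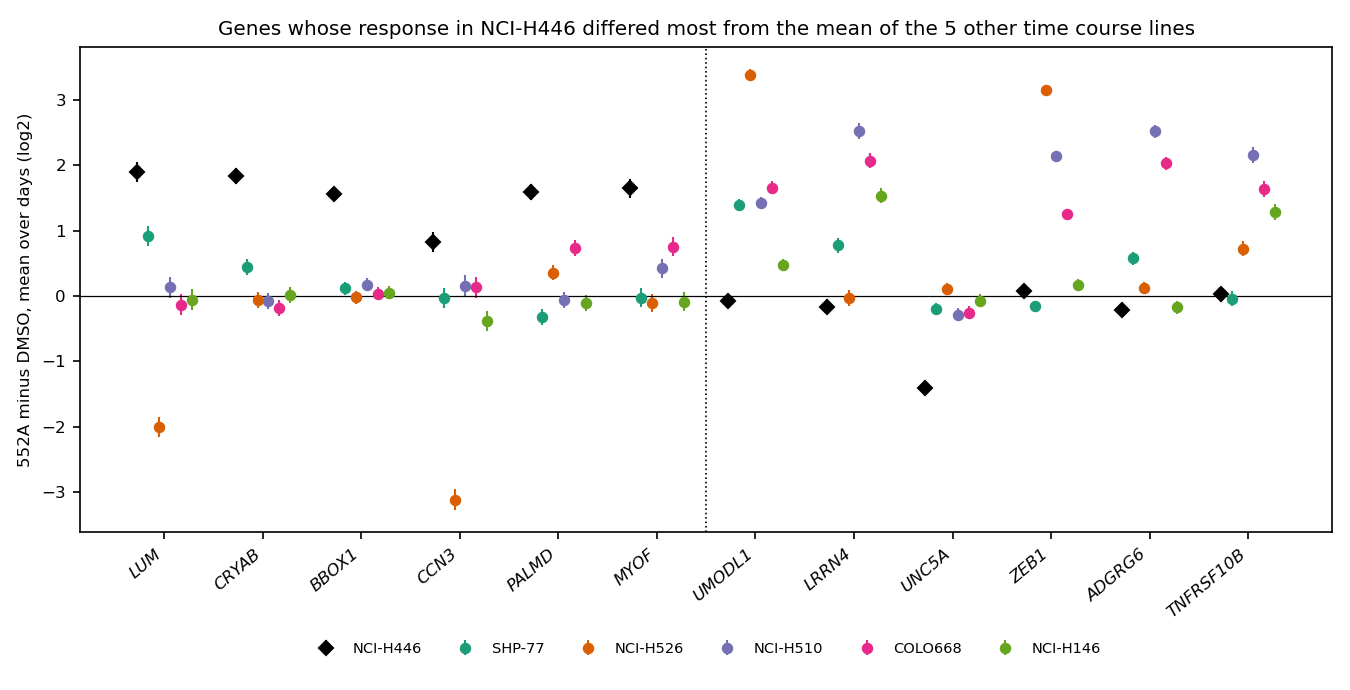
Averaged change (552A minus DMSO, log2, y axis) with its standard error in NCI-H446 (black diamonds) and 5 other lines (coloured points) for the genes (x axis) with the largest difference from the mean of those lines; genes left of the dotted line were higher in NCI-H446. LUM shows 1.90 in NCI-H446 and -2.01 in NCI-H526, where it was dim in DMSO, and ZEB1 shows 0.07 against 3.14.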

How the data were processed

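The authors deposited 1 log2 value per probe set of the Affymetrix HG-U133 Plus 2.0 array and sample. Neither the log base nor the normalization method is given in the sources used here; log2 was taken from the range of the values. Array medians ran from 7.36 to 7.46, and the number of arrays limits the precision. Of 54675 probe sets, 41091 had 1 gene symbol, 1801 several, 11721 none and 62 were controls. Each gene was read from 1 probe set, the one brightest on average across the series (one ending in _x_at only where there was no other), after keeping probe sets with at least 1 group mean above 7.41, the median of all values, which left 15352 genes. A limma 3.58.1 model (R 4.3.3) was fitted to all 88 arrays with 42 group means (line, treatment and day) and 46 residual degrees of freedom, and p-values were adjusted by Benjamini-Hochberg over all genes, with calls at 0.05. The 3 days had equal weight. The fit was tested on simulated data. Tables were made with Python 3.11.15, pandas 2.3.3 and numpy 2.4.6.

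Named genes were the 12 per direction with the largest averaged change among those called with 1 sign on all days, 4 per list by size of change, up to 4 per direction for day 7 against day 2, 6 per direction against the other lines, and 26 regulators, of which 2 were not analysed here. Other called list members, and the genes that set the day 4 DMSO arrays apart, were named after their values were seen. The arrays, lists and rules were chosen with earlier results of these data known. Alternatives were another normalization, filter, probe set rule, variance model, weighting, pairing and set of arrays; 2 of them, the mean of days 2 and 7 and the removal of DMSO day 4 replicates 2 and 3 together, were chosen after seeing the data.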

Additional observations from a re-analysis of the deposited data

Results flagged for a closer look

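The response differed between day 2 and day 7, by the test of that difference, for 35 genes. The named ones were COL4A3 (1.67), SLN (1.58), BBOX1 (1.38) and KISS1R (1.34), with a larger value at day 7, and QPCT (-2.05), MYO5B (-1.12) and RND1 (-0.99), with a smaller one, all on the log2 scale.

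The response differed between NCI-H446 and the mean of the 5 other lines, by the test of that difference, for 1374 genes. It was higher in NCI-H446 for LUM (2.12), CRYAB (1.80), BBOX1 (1.48), CCN3 (1.47), PALMD (1.46) and MYOF (1.45). It was lower for UMODL1 (-1.74), LRRN4 (-1.54), UNC5A (-1.26), ZEB1 (-1.24), ADGRG6 (-1.22) and TNFRSF10B (-1.13). No group of NCI-H446 arrays holds enough arrays for a test of outlying samples.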

How the results depend on the processing

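Counts of called genes depended on the arrays and settings used. Leaving out 1 array at a time gave 618 to 2087 calls averaged over days (858 with all arrays), 25 to 160 at day 2 (76), 397 to 5891 at day 4 (1638), 204 to 707 at day 7 (477), 14 to 67 for day 7 against day 2 (35) and 1036 to 2800 against the other lines (1374). The fit to NCI-H446 arrays alone gave 220 averaged, 62 at day 4 and 61 at day 7. It gave 0 at day 2 and 0 for day 7 against day 2. At day 2, 332 of all 15352 genes tested had an unadjusted limma p below 0.05 in that fit, a share below the 0.05 expected if no gene differed. Array weights, whose estimation did not fully converge, gave 2115 averaged (1156 up, 959 down), 492, 5476 (2573 up, 2903 down) and 939 at days 2, 4 and 7, 405 for day 7 against day 2 and 2888 against the other lines. Without the 6 arrays in doubt there were 270, 768 (316 up, 452 down) and 1156 calls at days 2, 4 and 7 and 201 for day 7 against day 2; the averaged split was 683 up and 425 down. Without DMSO day 4 replicates 2 and 3 there were 200, 122 and 861 on the 3 days and 148 for day 7 against day 2. The mean of days 2 and 7 gave 467. Quantile normalization gave 127 at day 2 and 54 for day 7 against day 2, and the mean of probe sets gave 12 for the latter. The replicate block gave 147 at day 2 and 78 for day 7 against day 2, and 1227 averaged; deviations of same-numbered arrays correlated at 0.03 at day 2, 0.32 and 0.39 at day 4 and -0.01 at day 7; since not every pair exceeds 0.1, the numbers are not taken to pair the arrays. The filter on NCI-H446 levels gave 706 higher and 404 lower against the other lines. Signs turned for COL3A1 (-0.073 with no filter) and DUSP4 (0.12 with the filter on NCI-H446 levels), where another probe set stood for the gene. The 24 leading genes were picked as the largest called changes in these same data, so their stability is no independent check. They kept their direction and call in 588 of the combinations of gene and setting. They lost the call in 7, for CORO2B, IGFBP5, SYNPR, IL6R and LUM. The cause of these shifts was not tested.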
